A study of Homo sapiens with 24 samples.

Results

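The data described here are the 12 of 24 arrays that came from SUM159, a triple-negative human breast cancer line with mesenchymal features, and the quantity is the difference between its Aldefluor+ and Aldefluor- cells averaged over both treatments. All SUM159 samples were taken, with none left out by a measured value. They form 4 groups of 3 arrays, which are ID8 Aldefluor+, ID8 Aldefluor-, DMSO Aldefluor+ and DMSO Aldefluor-. Cells had received 5 µM of ID8, a small molecule known by a code name, or the vehicle DMSO for 72 hours. Each of experiments 2, 3 and 4 gave 1 array to every group, so that 6 pairs of fractions were available, 1 per treatment and experiment. The other 12 arrays are the same 4 groups of T47D, a luminal line positive for the oestrogen receptor.

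The Aldefluor reagent is an aldehyde that aldehyde dehydrogenases turn into a charged fluorescent product, which stays in the cell. Cytosolic enzymes of the ALDH1A subfamily also oxidise retinaldehyde to retinoic acid, a ligand of nuclear receptors. In breast tumours and breast cancer lines a high activity is widely used to enrich cells with stem-like properties, although which isoform accounts for it varies between lines. The gate was placed so that 0.1% of events in a tube with DEAB, an inhibitor of the reaction, counted as positive. Total RNA of the sorted cells was amplified and hybridised to an array of gene-level probe sets. In such bulk samples, a lower signal from fewer cells of a type and one from less RNA per cell cannot be told apart.

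Levels are given as log2 signal, so that a difference of 1 is a doubling of signal. Arrays have no read depth, and precision depends on how many there are and on how much each gene varies between them. Of the genes tested, 49.1% had a mean below 2 over the SUM159 arrays, where signal stands little above background. The line was checked against its markers. All 12 measured genes typical of SUM159 were higher in SUM159 than in T47D, and all 15 typical of T47D were lower. The DMSO Aldefluor+ array of experiment 4 stood apart, with an interquartile range of 2.88 (log2) over genes against 2.97 to 3.12 on the other 23 arrays. RNA per sorted cell, from the labelled amounts, was higher in Aldefluor+ cells in 6 of 6 pairs, by 1.18-fold as the geometric mean over 3 experiments. With ID8 the yields per cell in experiments 2, 3 and 4 were 12.2, 15.0 and 15.6 pg in Aldefluor+ cells, against 10.2, 14.1 and 13.7 pg in Aldefluor- cells. With DMSO they ran from 12.71 to 13.03 pg in Aldefluor+ cells, against 9.08 to 11.6 pg in Aldefluor- cells. These yields were not tested, and their part in the results below was not tested.

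Averaged over ID8 and DMSO, 49 of 22395 genes (0.219%) differed between the SUM159 fractions at a limma adjusted p under 0.05. Aldefluor+ cells had 23 genes higher (0.103%) and 26 lower (0.116%). ALDH1A1, the retinaldehyde-oxidising enzyme most often tied to the Aldefluor assay, was 7.54-fold higher. SPINK6, a Kazal-type inhibitor of kallikrein proteases, followed at 3.10-fold higher. On the lower side the cancer-testis genes PAGE2B and SPANXC had differences of -1.69 and -1.62, with Aldefluor+ means of 1.65 and 1.92, near background, so that neither their size nor their order is firm. CCN4, a secreted matricellular Wnt target, was 2.57-fold lower. In 17 of the 49 genes the mean of a fraction lay below 2, where a fold is uncertain. Most differences were small. Their median size was 0.76 on the log2 scale, 39 were under 1 and the smallest was 0.43.

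**Figure D1:**
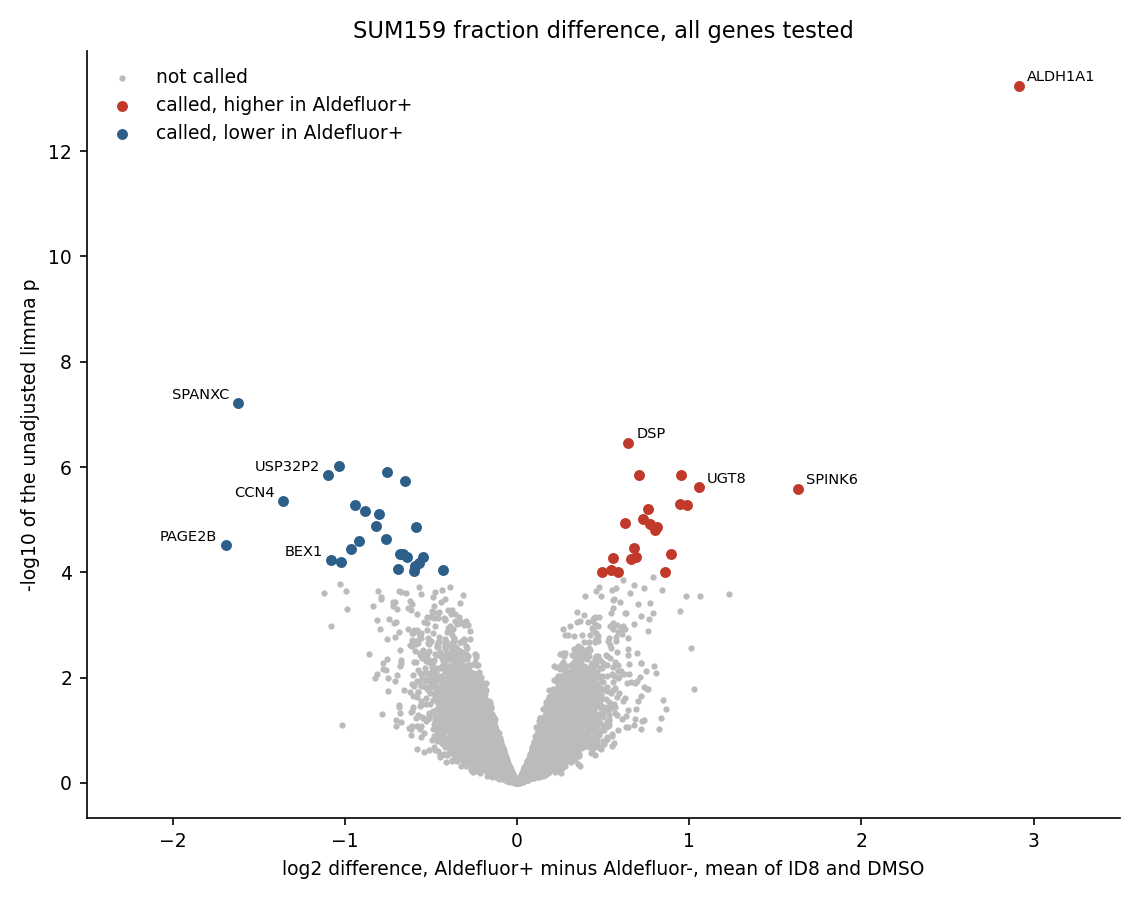
Log2 difference between Aldefluor+ and Aldefluor- SUM159 cells (mean of ID8 and DMSO, horizontal axis) against the -log10 of the unadjusted limma p (vertical axis), 1 point per gene tested. Red points are the 23 genes called higher and blue points the 26 called lower, and ALDH1A1 at 2.91 stands far from all others.

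Most calls needed all 3 experiments. In the fits that left out 1 experiment, 3 to 5 genes were called, and ALDH1A1 and SPANXC were the only 2 of the 49 called in each of the 3 fits. IQGAP2, SNX10, DSP, FBXO32 and USP32P2 were called in 1 of 3, and the other 42 in none. Without the DMSO Aldefluor+ array of experiment 4, 28 genes were called (17 higher and 11 lower), and 26 of the 49 kept their call. With each pair of fractions as its own block, by experiment and treatment, 30 genes were called and 26 of the 49 kept their call. The 23 lost there, at adjusted p from 0.0569 to 0.116, were BEX1, CA2, CABLES1, CD24, COL1A1, DKK1, ENPP2, FAM83H, FGF7P3, GBP1P1, ID1, ITGA10, LINC01133, LINC03033, NALCN, NEO1, SCG5, SDC1, SERPINE2, SESN3, SRR, SUGCT and ZNF780A. All of these but CABLES1, ID1 and SDC1 were also lost without that array, as were AZGP1P1, S100A4 and XDH. With only the SUM159 arrays, 37 genes were called (15 higher and 22 lower) and 29 of the 49 kept their call. The 20 lost here had limma adjusted p from 0.0590 to 0.220, with IQGAP2 and NPR3 among them but kept in the other 2 of these fits. Of the 49, 21 kept their call in each of the 3. Of the 49 genes, 42 had the same sign in 6 of 6 pairs, beside 4.69% of all genes tested, and 5 in 5 of 6, leaving ANKRD1 with 3 and SCG5 with 4. The same pairs chose the 49 genes, so these counts only describe them. In 29 of the 49 the 6 Aldefluor+ arrays did not overlap the 6 Aldefluor- arrays, against 199 of all genes tested (0.889%). At the edge of the threshold, SESN3 was the last gene called, with a difference of 0.86 ± 0.17 (SE, adjusted p = 0.0454), and FABP4 the first not called, with 0.79 ± 0.16 (adjusted p = 0.0552).

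ALDH1A1 is the gene whose product the sort is most often taken to read. With ID8, its log2 signals in experiments 2, 3 and 4 were 4.96, 5.30 and 5.41 in Aldefluor+ cells, against 2.21, 2.36 and 2.02 in Aldefluor- cells. With DMSO they were 5.03, 5.17 and 4.84 in Aldefluor+ cells, against 2.45, 1.98 and 2.19 in Aldefluor- cells. Every Aldefluor+ array was above every Aldefluor- array, with no overlap under either treatment. The difference was 2.91 ± 0.12 (SE, adjusted p = 1.27e-09), and by experiment it was 2.66, 3.06 and 3.02. It was 3.02 with ID8 and 2.80 with DMSO, and the change between treatments was 0.22 (unadjusted p = 0.379). No other aldehyde dehydrogenase was called. Of 19 listed family members 17 were measured, and the other 16 had differences between -0.20 and 0.31, with a lowest adjusted p of 0.437 for ALDH3A2, the fatty aldehyde dehydrogenase. ALDH1A3, the isoform that dominates in some other breast cancer lines, averaged 2.12 in Aldefluor+ and 2.04 in Aldefluor- cells, a difference of 0.081 ± 0.14 (SE, adjusted p = 0.930). The remaining retinaldehyde dehydrogenase, ALDH1A2, averaged 1.11 in Aldefluor+ and 1.00 in Aldefluor- cells, where its probe set lies near background. ALDH1B1, a mitochondrial family member, averaged 4.36 in Aldefluor+ and 4.26 in Aldefluor- cells. Both ALDH2 and ALDH3A1 were also within 0.14 of 0.

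Genes that handle or respond to retinoids showed no called member, beside 0.219% called of all genes tested. Of 25 measured, 12 had a difference above 0, with a median of -0.0047 (0.020 after quantile normalization), beside a median of -0.0057 and 48.4% above 0 over all genes tested. DHRS3, a retinaldehyde reductase that retinoic acid induces, had the highest difference among them at 0.45 (adjusted p = 0.204). LRAT, which makes retinyl esters, had the lowest at -0.24 (adjusted p = 0.748). Efflux transporters, which are used as markers of dye-excluding stem-like cells, had 0 of 9 measured members called and 3 above 0, with a median of -0.17. ABCG2, the transporter behind the side-population assay, had a difference of -0.42 (adjusted p = 0.275), with -0.0019 under ID8 and -0.84 under DMSO. ABCC2 had the lowest difference at -0.58 (adjusted p = 0.471), with -1.21 under ID8 and 0.055 under DMSO.

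Among the other genes called higher, DSP encodes desmoplakin, which anchors keratin filaments at desmosomes. Its Aldefluor+ arrays ran from 6.06 over a median of 6.57 to 6.73, and its Aldefluor- arrays from 5.52 over 5.88 to 6.20. The groups overlapped, as the DMSO Aldefluor- arrays at 6.06 to 6.20 reached the DMSO Aldefluor+ range, and all 6 pairs had the same sign. Desmoplakin RNA was 0.65 ± 0.078 higher on average (SE, adjusted p = 0.00257), with 1.13 under ID8 and 0.16 under DMSO. SFN, the epithelial 14-3-3 sigma protein, had 5.79 to 6.06 (median 5.87) in Aldefluor+ cells, against 4.87 to 5.31 (median 5.18) in Aldefluor- cells. These ranges did not overlap, and the difference was 0.73 ± 0.12 (SE, adjusted p = 0.0114). SDC1 encodes syndecan-1, a heparan sulphate proteoglycan of epithelial cells. It had 4.33 to 4.61 (median 4.54) in Aldefluor+ cells, against 3.70 to 4.08 (median 3.86) in Aldefluor- cells, again with no overlap and a difference of 0.62 ± 0.100 (SE, adjusted p = 0.0127, or 0.0720 with the pairs as blocks). CDH10, a type II cadherin, was 0.76 higher with no overlap, although all its arrays lay between 1.00 and 2.37. FAM83H, a protein linked to keratin filament organisation, was 0.55 higher.

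CD24, a glycosylated surface protein whose low level together with high CD44 marks another stem-like phenotype of breast cancer, was higher in Aldefluor+ cells. Its arrays ran from 6.65 over 6.72 to 7.45 in Aldefluor+ cells, against 5.71 over 6.44 to 7.06 in Aldefluor- cells. The groups overlapped, 5 of 6 pairs had the same sign, and the difference was 0.49 ± 0.096 (SE, limma adjusted p = 0.0454). That adjusted p was 0.109 with the pairs as blocks, 0.124 without the DMSO Aldefluor+ array of experiment 4 and 0.208 with only the SUM159 arrays. CD24 had a difference of 0.76 under ID8 and 0.22 under DMSO (limma adjusted p = 0.0437 and 0.740), so it was not called with DMSO alone. It was the only called gene among 22 measured stem cell markers and factors, of which 10 were above 0 with a median of -0.036. CD44 had a difference of -0.050 (limma adjusted p = 0.930). Desmosome and junction genes likewise held 1 called gene of 23, DSP, with 14 above 0 and a median of 0.018. The keratins had 0 of 11 called. Over all genes tested, 0.219% were called. Every list was chosen with earlier results of these data known, so nothing is read from the share called in any list.

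**Figure D2:**
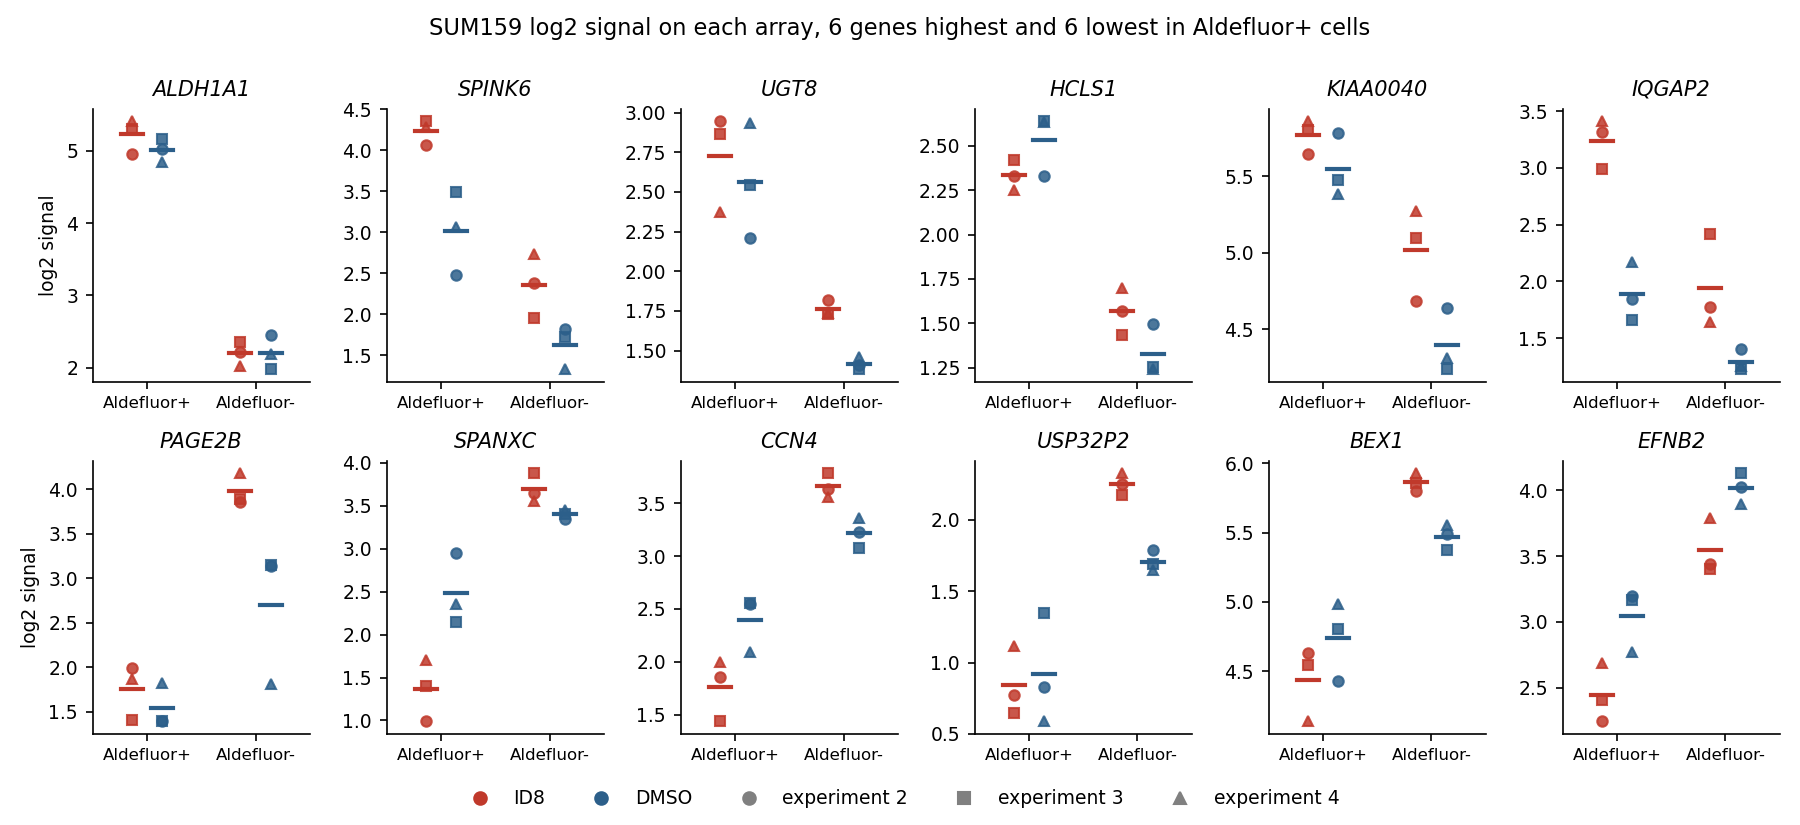
Log2 signal (vertical axes, with a scale of its own for each gene) on each of the 12 SUM159 arrays, Aldefluor+ to the left of Aldefluor-, for the 6 genes highest (top) and the 6 lowest (bottom) in Aldefluor+ cells. Red is ID8, blue DMSO, symbols are experiments and short lines are means of 3 arrays, and the ALDH1A1 signals lie at 4.84 to 5.41 in Aldefluor+ and at 1.98 to 2.45 in Aldefluor- cells.

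The protease inhibitor gene SPINK6 had 4.06, 4.36 and 4.28 in ID8 Aldefluor+ cells, against 2.38, 1.95 and 2.74 in ID8 Aldefluor- cells, and 2.48, 3.49 and 3.06 in DMSO Aldefluor+ cells, against 1.82, 1.73 and 1.33 in DMSO Aldefluor- cells. The fractions separated within each treatment and overlapped when treatments were pooled, since the DMSO arrays lay lower. The difference was 1.63 ± 0.23 (SE, adjusted p = 0.00522). IQGAP2, a scaffold protein that binds actin, behaved likewise, with a difference of 0.95 ± 0.14 (SE, adjusted p = 0.00796), 1.29 under ID8 and 0.60 under DMSO. UGT8, which transfers galactose to ceramide, ran from 2.21 over 2.70 to 2.95 in Aldefluor+ cells, against 1.38 over 1.60 to 1.82 in Aldefluor- cells. It was 2.08-fold higher without overlap (adjusted p = 0.00522). HCLS1, an actin-binding adaptor best known from blood cells, was 1.98-fold higher without overlap, with 2.25 to 2.64 in Aldefluor+ cells, against 1.24 to 1.70 in Aldefluor- cells. KIAA0040 was 1.93-fold higher, with 5.39 to 5.86 in Aldefluor+ cells, against 4.24 to 5.27 in Aldefluor- cells. Neither UGT8 nor HCLS1 passed the threshold with either treatment alone. In both genes every Aldefluor- array lay below 2, near background, so that their folds are uncertain.

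ID1, an inhibitor of basic helix-loop-helix factors that BMP signalling induces, ran from 6.96 over 7.25 to 7.49 in Aldefluor+ cells, against 6.32 over 6.54 to 6.88 in Aldefluor- cells. It did not overlap between fractions and was 0.66 ± 0.12 higher (SE, adjusted p = 0.0331, or 0.0734 with the pairs as blocks). It was the only called gene of 26 in the TGF-beta and BMP list, beside 0.219% of all genes tested. That list had 12 above 0 and a median of -0.012. The ID1 paralogues ID2 and ID3 had 0.25 and 0.33 (adjusted p = 0.768 and 0.587), and TGFB2, a ligand, had -0.79 (adjusted p = 0.0878). NPR3, the clearance receptor of natriuretic peptides, was 0.89 ± 0.16 higher (SE, adjusted p = 0.0305), with the same sign in 6 of 6 pairs. Its difference was 1.55 under DMSO and 0.23 under ID8, since the ID8 Aldefluor- arrays were at 5.03 to 5.77 and the DMSO Aldefluor- arrays at 3.88 to 4.19. None of the other 5 measured natriuretic peptide and receptor genes was called.

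The remaining genes called higher were spread over metabolism, transport and transcription. XDH, which makes uric acid from xanthine, was 0.80 higher and CA2, a cytosolic carbonic anhydrase, 0.68 higher, both with overlapping groups. GRAMD1B, a sterol carrier at contacts between the plasma membrane and the endoplasmic reticulum, was 0.77 higher without overlap. SNX10, a sorting nexin of endosomes, was 0.71 higher without overlap, with 2.68 to 3.03 in Aldefluor+ cells, against 1.96 to 2.35 in Aldefluor- cells. The stress-response gene SESN3 was 0.86 higher, NEO1, a receptor for netrins and repulsive guidance molecules, 0.59 higher and the zinc finger gene ZNF780A 0.56 higher. GBP1P1, a pseudogene of an interferon-induced GTPase, was 0.69 higher, but its arrays reached only 2.05, and a probe set on a pseudogene may not be told from its parent.

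ANKRD1, a cardiac ankyrin repeat protein and YAP and TAZ target, is called in the average but had opposite signs under the treatments. With ID8, its signals were 4.03, 4.36 and 4.62 in Aldefluor+ cells, against 4.64, 4.92 and 4.79 in Aldefluor- cells. With DMSO they were 3.63, 3.83 and 3.49 in Aldefluor+ cells, against 1.58, 1.61 and 1.53 in Aldefluor- cells. The DMSO Aldefluor- group lay far below the other 3 groups. The average of 0.81 ± 0.13 (SE, adjusted p = 0.0127) combines -0.44 under ID8 and 2.07 under DMSO. The DMSO difference was called alone (limma adjusted p = 7.17e-05), and the ID8 difference was not (adjusted p = 0.583). The ID8 difference minus the DMSO difference was -2.52 (adjusted p = 0.00121), and ANKRD1 was the only 1 of 22395 genes (0.00447%) called in that test, beside 1582 with an unadjusted p under 0.05. It lost that call without experiment 2 and without experiment 3. Among 22 measured YAP and TAZ targets no other was called in the average, beside 0.219% of all genes tested. Of the 22, 6 were above 0 and the median was -0.046. CCN2, the most used target of that pathway, had 0.16 (adjusted p = 0.914).

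A pair of promoters is shown because their genes frame the average. ALDH1A1 had the largest difference, and ANKRD1 was the only gene whose treatment difference was called. DKK1 is added as a gene called lower that shares a motif with ANKRD1, as ITGA10 also does. The printed promoters are the 250 bases before the RefSeq gene start on GRCh38.p14. Capitals mark GGAATG, the core of the TEAD motif through which YAP and TAZ act, CCAAT, and TATAAA.
ALDH1A1, chr9:72953054-72953303, minus strand: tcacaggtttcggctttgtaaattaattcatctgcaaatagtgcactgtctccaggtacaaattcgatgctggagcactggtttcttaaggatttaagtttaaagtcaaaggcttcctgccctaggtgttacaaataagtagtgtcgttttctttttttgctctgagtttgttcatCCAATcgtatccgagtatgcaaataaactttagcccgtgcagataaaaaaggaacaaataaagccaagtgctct
ANKRD1, chr10:90921088-90921337, minus strand: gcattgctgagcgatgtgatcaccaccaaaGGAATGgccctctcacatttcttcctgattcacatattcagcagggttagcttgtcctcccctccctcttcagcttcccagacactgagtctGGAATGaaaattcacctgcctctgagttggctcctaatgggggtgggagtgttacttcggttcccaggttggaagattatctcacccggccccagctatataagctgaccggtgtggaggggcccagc
DKK1, chr10:52314031-52314280, plus strand: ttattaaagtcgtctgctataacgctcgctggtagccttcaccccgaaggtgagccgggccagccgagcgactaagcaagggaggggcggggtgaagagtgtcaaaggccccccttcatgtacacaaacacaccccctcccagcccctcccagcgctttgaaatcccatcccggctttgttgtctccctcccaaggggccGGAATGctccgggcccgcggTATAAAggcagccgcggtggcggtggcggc
GGAATG begins 220 and 128 bases before the start in ANKRD1 and 50 bases before it in DKK1. Of the 49 called genes, 37 had a promoter in the RefSeq table, and 3 of these (8.11%), including ITGA10, held GGAATG on either strand, beside 10.1% of 15307 tested genes. TGACTCA, the AP-1 motif, was in AMIGO2, HCLS1 and SNX10, which is 8.11% beside 3.36% of all. CCAAT was in 35.1% beside 34.1%, and TATAAA in 13.5% beside 8.91%, both searched only after the data were seen. None of these 4 letter strings overlaps another in the printed promoters. A match describes these letters and no bound site.

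Cancer-testis antigens, genes normally silent outside the germ line and often re-expressed in tumours, were the list with the lowest median. Of 28 listed, 15 were measured, and 9 of these had a mean below 2 over the SUM159 arrays, near background. Of the 15, 2 were called lower, beside 0.116% of all genes tested, and none was called higher. Only 1 was above 0, beside 48.4% of all genes tested, and the median was -0.27. Earlier results of these data, known when the list was chosen, had named both called genes, SPANXC and PAGE2B. Nothing is therefore read from these shares. SPANXC had 0.99, 1.40 and 1.70 in ID8 Aldefluor+ cells, against 3.65, 3.88 and 3.55 in ID8 Aldefluor- cells. It had 2.95, 2.15 and 2.35 in DMSO Aldefluor+ cells, against 3.35, 3.40 and 3.45 in DMSO Aldefluor- cells. No Aldefluor+ array reached an Aldefluor- array, and the difference was -1.62 ± 0.17 (SE, adjusted p = 6.90e-04), or -2.33 under ID8 and -0.92 under DMSO. PAGE2B had 1.99, 1.41 and 1.87 in ID8 Aldefluor+ cells, against 3.86, 3.89 and 4.19 in ID8 Aldefluor- cells. It had 1.40, 1.39 and 1.83 in DMSO Aldefluor+ cells, against 3.14, 3.15 and 1.81 in DMSO Aldefluor- cells. The DMSO pair of experiment 4 had nearly equal signals, and the groups overlapped, and the average was -1.69 ± 0.29 (SE, adjusted p = 0.0244). PAGE5 had -1.12 without passing the test (adjusted p = 0.0802). SPANX and PAGE genes have near-identical copies on the X chromosome, so the copy that gives the signal is uncertain.

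COL6A3, a chain of collagen VI, ran from 3.16 over 3.60 to 3.72 in Aldefluor+ cells, against 4.27 over 4.51 to 4.63 in Aldefluor- cells. COL1A1, a chain of collagen I, ran from 2.41 over 2.45 to 2.59 in Aldefluor+ cells, against 2.92 over 3.15 to 3.40 in Aldefluor- cells. Neither gene's groups overlapped, and the differences were -0.94 ± 0.14 and -0.69 ± 0.13 (SE, limma adjusted p = 0.00796 and 0.0448). The adjusted p of COL1A1 was 0.0758 with the pairs as blocks and 0.0996 without the DMSO Aldefluor+ array of experiment 4. COL6A3 and COL1A1 were the 2 called of 18 measured collagens, beside 0.219% of all genes tested. The collagen median was 0.036 with 10 above 0. COL5A1, a chain of collagen V, had -0.69 (adjusted p = 0.167), and the basement membrane chains COL4A1 and COL4A2 had 0.32 and 0.23 (adjusted p = 0.592 each).

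S100A4, a calcium-binding protein used as a mesenchymal and fibroblast marker, had 1.48 to 2.31 (median 1.75) in Aldefluor+ cells, against 1.91 to 3.06 (median 2.42) in Aldefluor- cells. The pooled ranges overlapped while all 6 pairs were lower, by -0.64 ± 0.12 on average (SE, adjusted p = 0.0319). It was the only called gene of 19 in the mesenchymal list, beside 0.219% of all genes tested, and the list median was 0.013. ITGA10, a collagen-binding integrin chain, had a difference of -0.55 without overlap, at 1.64 to 2.22 in Aldefluor+ cells, against 2.25 to 2.46 in Aldefluor- cells. SERPINE2, a secreted inhibitor of thrombin and plasminogen activators, had 1.12 to 1.72 in Aldefluor+ cells, against 1.79 to 2.48 in Aldefluor- cells, without overlap but near background. ENPP2, the autotaxin that makes lysophosphatidic acid, had 5.28 to 5.45 in Aldefluor+ cells, against 5.65 to 6.40 in Aldefluor- cells, without overlap. Of the integrin and laminin list, 0 of 20 measured were called, with 14 above 0 and a median of 0.076. ITGB4 had the highest value there, 0.77 (adjusted p = 0.133).

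A pair of Wnt pathway genes fell. CCN4 had 1.86, 1.43 and 1.99 in ID8 Aldefluor+ cells, against 3.63, 3.79 and 3.56 in ID8 Aldefluor- cells. It had 2.54, 2.56 and 2.09 in DMSO Aldefluor+ cells, against 3.22, 3.08 and 3.36 in DMSO Aldefluor- cells. No values overlapped between fractions, and the difference was -1.36 ± 0.20 (SE, adjusted p = 0.00796), or -1.90 under ID8 and -0.82 under DMSO. DKK1, a secreted antagonist of Wnt co-receptors, fell by 0.60 (SE 0.12, limma adjusted p = 0.0454), with a lower signal in 6 of 6 pairs. Its adjusted p was 0.0997 with the pairs as blocks, 0.0758 without the DMSO Aldefluor+ array of experiment 4 and 0.200 with only the SUM159 arrays. The Wnt list had 25 measured members, of which these 2 were called, beside 0.219% of all genes tested. Of the 25, 10 were above 0 and the median was -0.046. AXIN2, a general Wnt target, had 0.16 (adjusted p = 0.851), and LEF1, a Wnt transcription factor, had -0.48 (adjusted p = 0.103).

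EFNB2, the ephrin-B2 ligand of Eph receptors, had 2.24 to 3.20 (median 2.73) in Aldefluor+ cells, against 3.40 to 4.13 (median 3.84) in Aldefluor- cells. It was 2.05-fold lower without overlap (adjusted p = 0.00405), with -1.10 under ID8 and -0.97 under DMSO. BEX1, an X-linked adaptor expressed in brain, was 2.12-fold lower without overlap, at 4.14 to 4.99 in Aldefluor+ cells, against 5.38 to 5.93 in Aldefluor- cells. FBXO32, the ubiquitin ligase atrogin-1, had 3.78 to 4.29 in Aldefluor+ cells, against 4.63 to 4.87 in Aldefluor- cells, a difference of -0.76 without overlap. AMIGO2, a neuronal adhesion protein, had 3.52 to 3.77 in Aldefluor+ cells, against 4.13 to 4.80 in Aldefluor- cells, a difference of -0.81 without overlap. EMX2, a homeobox factor of brain and urogenital development, fell in all 6 pairs by -0.65 ± 0.089 on average (SE, adjusted p = 0.00449), with overlap because both ID8 groups lay above their DMSO counterparts.

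Other genes called lower were CABLES1, a linker of cyclin-dependent kinases, at -0.59, the sodium leak channel NALCN at -0.57, the glutarate CoA-transferase SUGCT at -0.66 and the serine racemase SRR at -0.43. SCG5, a chaperone of a prohormone convertase, had -1.21 under ID8 and 0.025 under DMSO, so its average of -0.59 came from the ID8 arrays. The long non-coding RNAs LINC01133 and LINC03033 were at -1.02 and -0.82, and C9orf104, a name kept from the platform's annotation, at -0.88. USP32P2, FGF7P3 and AZGP1P1 are pseudogenes of a deubiquitinase, a fibroblast growth factor and a secreted glycoprotein, and had -1.10, -0.97 and -0.92. Their probe sets may also read the parent genes.

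The treatments could be set beside each other for the 49 genes. The sign was the same under ID8 and under DMSO for 47, all but ANKRD1 and SCG5. With ID8 alone 24 passed the adjusted threshold and with DMSO alone 4 did, while 22 passed in neither and were called only when both were averaged. The size was larger under ID8 for 12 of the 23 higher genes and for 23 of the 26 lower genes. Together these were 71.4% of the called genes, beside 49.4% of all genes tested. Among all genes with an unadjusted p under 0.05 for the average, 52.4% were larger under ID8. Of the 21 called genes that kept their call in each of the 3 alternative fits above, 11 were larger under ID8. These shares are over genes, which are not replicates, and only ANKRD1 passed the adjusted test of the treatment difference. Another 13 of the called genes had an unadjusted p under 0.05 there, of which the smallest was that of DSP, with a treatment difference of 0.96 (adjusted p = 0.0965). MYL9, a myosin light chain that was not called in the average, had -0.03 under ID8, 1.15 under DMSO and 0.56 on average (adjusted p = 0.0905).

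**Figure D3:**
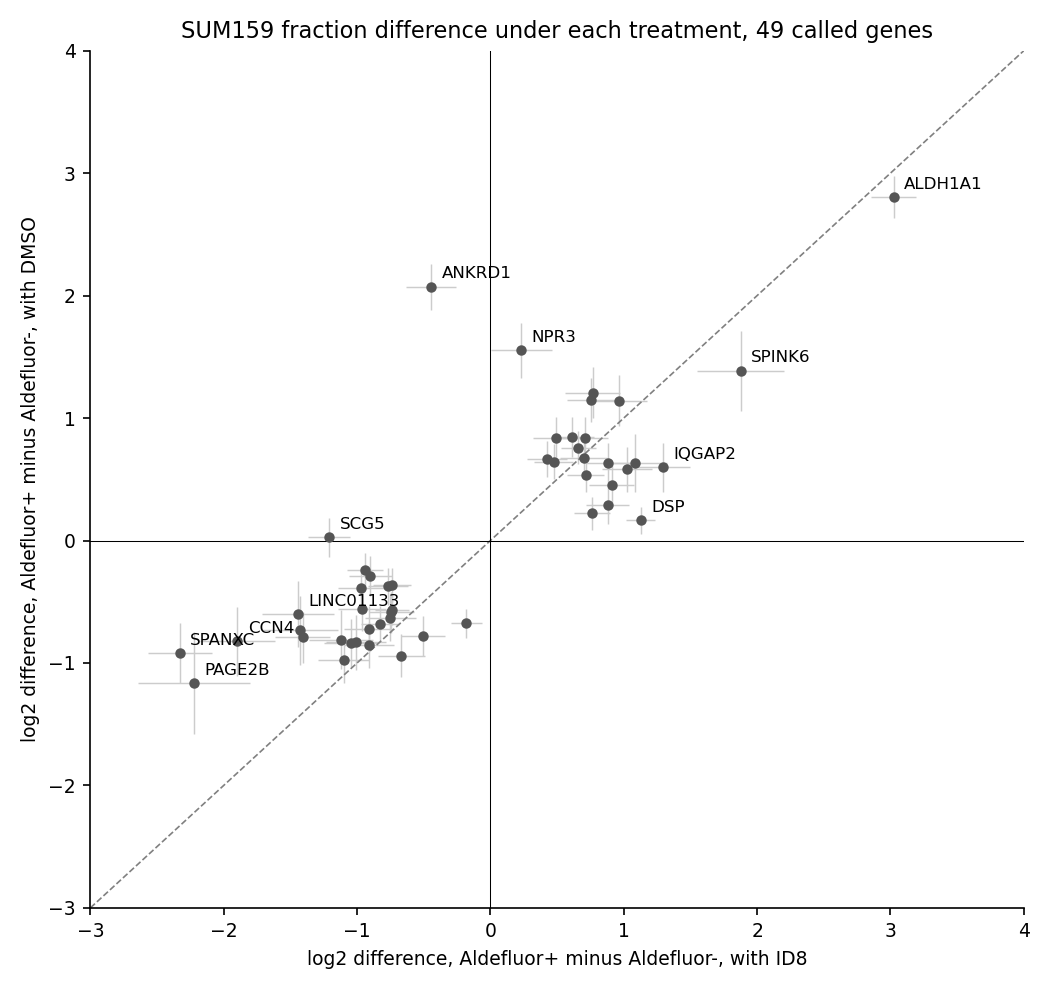
Log2 difference between Aldefluor+ and Aldefluor- SUM159 cells with ID8 (horizontal axis) and with DMSO (vertical axis) for the 49 genes called in the average, with limma SEs as bars. The dashed line marks equal differences, ANKRD1 lies at -0.44 with ID8 and 2.07 with DMSO, and most lower genes lie left of the line.

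The 43 lists had 774 distinct measured members, of which 13 (1.68%) were called, beside 0.219% of all genes tested. The lists were chosen with earlier results of these data known, so nothing is read from that share. G1/S and DNA replication genes had 0 of 36 called, yet 31 were above 0, with a median of 0.088 that was 0.030 under ID8 and 0.19 under DMSO. GINS2, a part of the replicative helicase, had the highest value at 0.33 (adjusted p = 0.186). Of 31 G2/M genes 22 were above 0 (median 0.051), and of 12 histone genes 10 were (median 0.18), with none called. Cholesterol synthesis and uptake genes had 12 of 18 above 0 and a median of 0.13, led by MVK, mevalonate kinase, at 0.47 (adjusted p = 0.306). Actomyosin genes had 19 of 24 above 0 and a median of 0.091, which was -0.054 under ID8 and 0.17 under DMSO.

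On the lower side, ER chaperone and unfolded protein response genes had 5 of 22 above 0 and a median of -0.11, with -0.16 under ID8 and -0.15 under DMSO. ERN1, the stress sensor IRE1, had the lowest value at -0.54 (adjusted p = 0.139), and PDIA4, a protein disulphide isomerase, had -0.34 (adjusted p = 0.134). ATF4 and amino acid response genes had 6 of 29 above 0 and a median of -0.10, but by experiment the median was 0.083, -0.17 and -0.16. No member of either list was called. Respiratory chain subunits had a median of 0.0042 with 0 of 24 called, and fatty acid synthesis genes one of 0.0032 with 0 of 20, where FASN had 0.47 (adjusted p = 0.0760).

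**Figure D4:**
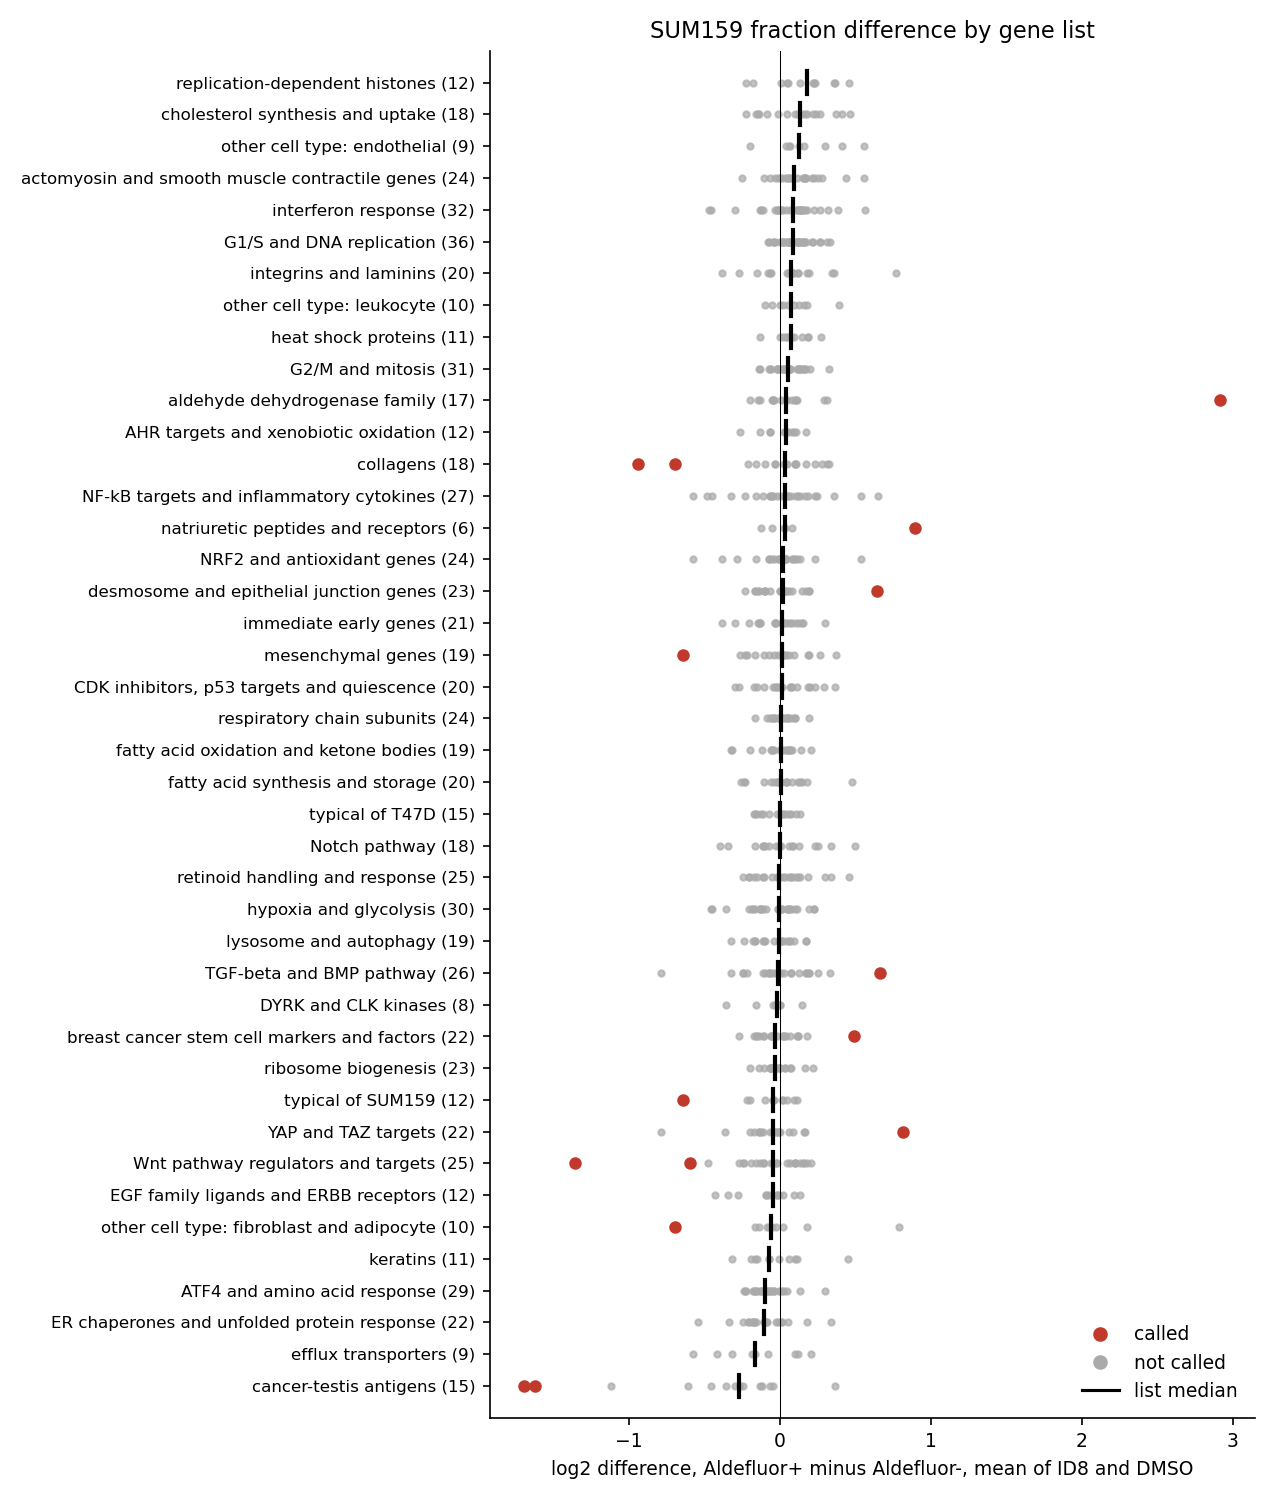
Log2 difference between Aldefluor+ and Aldefluor- SUM159 cells (horizontal axis, mean of ID8 and DMSO) for each measured member of the gene lists, with the number measured in brackets. Red points are called genes and black bars list medians, which lie between -0.27 for the cancer-testis antigens and 0.18 for the replication-dependent histones.

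Markers of other cell types were low. Endothelial markers had 8 of 9 above 0 (median 0.13), with a mean log2 level of 1.50 to 1.61 on Aldefluor+ arrays, against 1.32 to 1.48 on Aldefluor- arrays, and 7 of the 9 were below 2. Leukocyte markers had 7 of 10 above 0 (median 0.073), with 1.27 to 1.42 on Aldefluor+ arrays, against 1.25 to 1.33 on Aldefluor- arrays. Fibroblast and adipocyte markers had 3 of 10 above 0 and 1 called, COL1A1 at -0.69, beside 0.219% of all genes tested. FABP4, an adipocyte marker, had the highest difference there at 0.79 (limma adjusted p = 0.0552). The mean level of these markers was 1.48 to 1.67 on Aldefluor+ arrays, against 1.53 to 1.64 on Aldefluor- arrays. Of the 34 markers of endothelium, leukocytes, fibroblasts and adipocytes that were listed, 29 were measured. Their part in the results was not tested.

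The same average in T47D called 196 genes (0.875%), and the test of SUM159 minus T47D called 107 (0.478%). That test called 20 of the 49 SUM159 genes and left 29 uncalled. ALDH1A1 had 0.091 in T47D (adjusted p = 0.859), so that SUM159 minus T47D was 2.82 (adjusted p = 4.29e-07). SNX10 was higher in SUM159 Aldefluor+ cells by 0.71 but -0.97 in T47D, a line difference of 1.68 (adjusted p = 8.91e-06). CABLES1, DKK1, EFNB2, AZGP1P1 and FBXO32 were lower in SUM159 and called higher in T47D, at 0.86, 0.95, 0.67, 0.90 and 0.64. DSP was 0.65 in SUM159 and -0.20 in T47D, a line difference of 0.85 (adjusted p = 0.00144).

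Of the 49 genes, 9 were called in T47D too, which is 18.4% of the SUM159 calls and 4.59% of the T47D calls. Only 3 of them had the same sign, NPR3 with 0.89 in SUM159 and 1.50 in T47D, GRAMD1B with 0.77 in SUM159 and 0.57 in T47D, and AMIGO2 with -0.81 in SUM159 and -1.12 in T47D. For these 3 the line difference was not called (adjusted p = 0.378, 0.815 and 0.633). The line difference of SPINK6 was 1.50 and just missed the threshold (adjusted p = 0.0559).

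**Figure D5:**
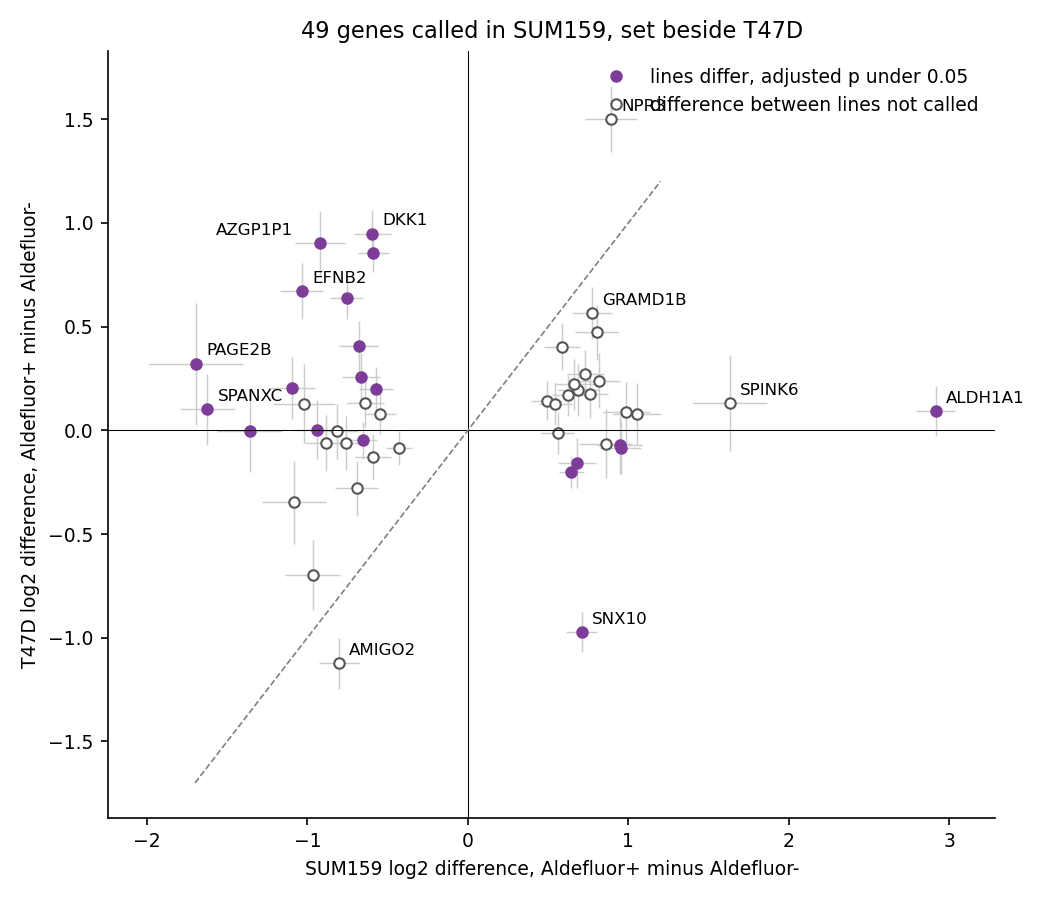
Log2 difference between Aldefluor+ and Aldefluor- cells in SUM159 (horizontal axis) and in T47D (vertical axis), each the mean of ID8 and DMSO, for the 49 genes called in SUM159, with limma SEs as bars. Filled points are the 20 genes whose difference between lines was called, among them ALDH1A1 at 2.91 in SUM159 and 0.091 in T47D, and the dashed line marks equality.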

How the data were processed

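Gene expression was measured on Affymetrix Human Gene ST arrays. The deposited values are log2 signals that the authors made by RMA, per the submitters' processing notes, with experiment and processing batches adjusted by ComBat, per the labels' design text. ComBat's settings and all versions are not given in the sources used. Of 53617 probe sets, 23871 had 1 gene symbol, 1842 several and 27904 none. The 22569 symbols found by gene number were updated to RefSeq (GRCh38.p14). For 632 genes with more than 1 probe set the brightest was kept, leaving 22395 genes.

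The test was limma 3.58.1 (lmFit and eBayes, R 4.3.3) on all 24 arrays with 8 group means and experiment as a block within each line, leaving 12 residual degrees of freedom, so both lines share a spread per gene. The Benjamini-Hochberg adjustment ran over all genes, calls were made where it gave less than 0.05, and rose and fell are used of such genes. Errors with SE are limma's. The pipeline was tested on simulated data. The labels state that the numbers mark separate experiments, so they pair the samples. Over 18 SUM159 pairs of the same experiment, the correlation of their deviations from group means was -0.408 to -0.266, as follows when experiment means have been removed, and an experiment mean differed from the line mean by an SD over genes of at most 0.0226. Nothing more is stated on how separate the cultures were, so p-values measure the spread between these samples.

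The members, lists and naming rule were chosen with earlier results of these data known. Named were the 12 largest called differences in each direction, all aldehyde dehydrogenases, called list members (at most 4 a list, otherwise the 2 with the largest difference) and genes named in earlier results. The other called genes, and the list members CD44, CCN2, AXIN2, LEF1, ID2, ID3, LRAT, PAGE5, COL4A1, COL4A2, COL5A1 and FABP4, lie outside that rule and were named after their values were seen. Alternatives were the block, the arrays in the fit, a filter on dim genes, all probe sets, the normalization, the variance model, array weights and left-out experiments or arrays.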

Additional observations from a re-analysis of the deposited data

Results flagged for a closer look

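These results stand here because an effect of fraction differed between treatments or lines by limma's test of the difference itself. ANKRD1, the YAP and TAZ target, had an ID8 difference minus a DMSO difference of -2.52 in SUM159.

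The other differences are SUM159 minus T47D on the log2 scale, each fraction effect taken as Aldefluor+ minus Aldefluor-. Among genes called in SUM159 the positive ones were ALDH1A1 2.82, SNX10 1.68, KIAA0040 1.04, IQGAP2 1.02, DSP 0.85 and CA2 0.84. The negative ones were PAGE2B -2.01, AZGP1P1 -1.82, SPANXC -1.73, EFNB2 -1.71, DKK1 -1.54, CABLES1 -1.45, FBXO32 -1.39, CCN4 -1.36, USP32P2 -1.30, ENPP2 -1.08, COL6A3 -0.95, SUGCT -0.92, NALCN -0.77 and EMX2 -0.60.

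The line test called 107 genes, and of those not called in SUM159 only the named ones are listed here. Among these, the positive ones were MIR4316 1.86, MIR16-2 1.86, ABCA12 1.53 and SPINK13 1.47. MIR16-2 and MIR4316 are microRNA genes, and the array signal does not give their mature forms. The negative ones were SLC6A14 -2.44, TGFB2 -2.31, SLITRK6 -1.93, COX7B2 -1.75, FOS -1.28, ANKRD29 -1.25 and AHR -0.82. TGFB2 is a TGF-beta ligand, SLC6A14 an amino acid transporter and FOS an immediate early factor. Their differences rest on the 24 arrays together, and leaving out 1 experiment at a time lowered the number of genes called between lines to 36 to 55.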

How the results depend on the processing

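The fraction difference in SUM159 called 49 genes, 23 higher and 26 lower. With no replicate block it called 250 (105 higher and 145 lower), where the degrees of freedom used by the adjustment for experiment are counted again, and with the replicate block by experiment and treatment it called 30 (16 and 14) and 23 of the 49 lost their call. An intensity trend with robust spread gave 84 (40 and 44). The 11388 genes with a mean of 2 or more gave 64 (28 and 36), and all 53617 probe sets gave 35 (16 and 19). With only the SUM159 arrays there were 37 (15 and 22). Without SUM159 DMSO Aldefluor+ replicate 4 there were 28, of which 11 were lower. Leaving out each experiment gave 3 to 5, with 2 to 3 higher and 1 to 3 lower. Fewer arrays entered these fits. All 49 genes kept their direction in each alternative in which they were tested.

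The treatment difference called 1 gene, and 36 with no replicate block, 5 with the trend, 4 among genes with a mean of 2 or more, 3 after quantile normalization, 2 without the array named above and 0 to 1 when an experiment was left out. The line difference called 107 genes, 446 with no replicate block, 169 among genes with a mean of 2 or more and 36 to 55 when an experiment was left out, or 92 without the array named above. T47D called 196, 209 without that array, and 700 with no replicate block, 327 and 323 with the mean filter and the trend, 128 with only its own arrays and 48 to 68 when an experiment was left out. The cause of these changes was not tested. Low signal limits 17 of the 49 calls, in which a fraction mean lay below 2. The adjustment made before deposit may compress differences by an amount these values do not give. If it used batches beyond the experiment, the 12 residual degrees of freedom are too many, and SEs and adjusted p too small.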
